A study of Mus musculus with 8 samples.

Results

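Cadherins and protocadherins other than E-cadherin were followed in E-cadHI and E-cadLO tumor cells sorted from breast cancer brain metastases (BCBM). The members were all genes of the deposited count table that are annotated as protein coding and named Cdh with a number or Pcdh, without Cdh1, Cdh3 and Cdh5. This rule took 56 of the 31894 genes: 15 classical cadherins (3 of type I and 12 of type II), 5 other cadherins, 12 non-clustered protocadherins and 24 protocadherins of the gene clusters. The tumor cells came from organoids of a PyMT mouse mammary tumor that had been passaged in the brain, which is 1 tumor line, and both populations carried a fusion of E-cadherin with the fluorescent protein mCFP and Dendra2 in their nuclei. They were grown as brain metastasis tumors in FVB mice that the labels give as wild type, and living Dendra2-positive, tdTomato-low cells were sorted by flow cytometry on the mCFP signal into mCFP-positive cells (E-cadHI) and mCFP-negative cells (E-cadLO). Each of 4 mice, numbered 57, 58, 67 and 70, gave 1 bulk mRNA library of each population, which makes 8 libraries and 4 per group. Ages, times after injection and sexes were not given in the labels.

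Cadherins are transmembrane proteins that bind one another between neighboring cells through calcium-dependent extracellular repeats. Classical cadherins hold adherens junctions together and are linked to actin through beta-catenin and alpha-catenin, and exchange of E-cadherin for N-cadherin (Cdh2) is a known feature of epithelial-mesenchymal transition. Protocadherins bind more weakly and signal through other partners. The non-clustered delta protocadherins are mostly studied in brain development, and the clustered alpha, beta and gamma protocadherins are chosen in different combinations by single neurons, which gives each cell its own surface identity.

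The promoters of 3 protocadherins that the results turn on are shown with that of a cadherin of contrasting base composition. Each line gives the 250 bases before the RefSeq transcription start (build GRCm38.p6), 5′ to 3′, with CpG dinucleotides in capitals.
Pcdh18, chr3:49757317-49757566, minus strand: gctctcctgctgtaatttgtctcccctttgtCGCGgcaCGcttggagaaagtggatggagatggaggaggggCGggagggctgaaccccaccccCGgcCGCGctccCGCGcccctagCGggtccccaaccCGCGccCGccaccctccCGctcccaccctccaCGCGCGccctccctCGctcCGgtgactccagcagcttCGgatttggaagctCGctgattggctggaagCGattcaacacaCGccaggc
Pcdh9, chr14:93890680-93890929, minus strand: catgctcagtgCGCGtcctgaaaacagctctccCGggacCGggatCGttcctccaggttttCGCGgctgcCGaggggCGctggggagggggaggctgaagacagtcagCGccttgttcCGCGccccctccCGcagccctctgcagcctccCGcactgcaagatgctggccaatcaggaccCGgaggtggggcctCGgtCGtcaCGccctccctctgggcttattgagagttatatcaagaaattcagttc
Pcdh17, chr14:84443313-84443562, plus strand: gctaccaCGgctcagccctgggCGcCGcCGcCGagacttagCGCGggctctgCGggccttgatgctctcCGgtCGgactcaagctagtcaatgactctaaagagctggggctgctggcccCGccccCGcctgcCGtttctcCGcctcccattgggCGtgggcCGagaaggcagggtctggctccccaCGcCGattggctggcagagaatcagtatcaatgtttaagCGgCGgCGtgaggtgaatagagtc
Cdh10, chr15:18820079-18820328, plus strand: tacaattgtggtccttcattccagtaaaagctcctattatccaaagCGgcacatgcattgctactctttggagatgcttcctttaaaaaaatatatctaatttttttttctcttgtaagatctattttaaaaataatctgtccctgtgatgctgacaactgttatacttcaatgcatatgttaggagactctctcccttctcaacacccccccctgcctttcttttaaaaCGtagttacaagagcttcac
Pcdh18, the member with the highest level per length, had 23 CpG in this window, Pcdh9 had 18 and Pcdh17 had 21. Cdh10 had 2 CpG, and its RefSeq start lies inside an intron of the longer gene in the deposited table. At least 18 CpG were found in 21.7% of the 32851 promoters of the same length. Promoters were read only for the 29 members that do not lie on the chromosome of the clustered protocadherins. An entry was matched by symbol for 22 of these 29. The letters CACCTG or CAGGTG, 1 E-box read on both strands, were in 3 of the 25 promoters of these members and in 17.2% of all promoters, and in none of those printed.

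Total counts were 9102781 to 15769200 per library. Cdh1 itself stood at 114, 132, 93.5 and 108 CPM in the E-cadHI libraries and at 71.6, 181, 84.5 and 59.2 CPM in the E-cadLO libraries. Here and throughout, CPM are normalized counts scaled to the library size and values are listed for mice 57, 58, 67 and 70 in this order. Cdh1 was thus lower in E-cadLO in 3 of 4 mice, with a log2 fold change of -0.17 (SE 0.33) and an adjusted p of 0.809 in edgeR, and its mRNA did not separate the populations that the fusion protein was sorted on. All 8 markers of tumor epithelium were detected in every library, with a summed level of 7470 to 10214 CPM in E-cadHI and 5589 to 14385 CPM in E-cadLO. Of the 8, 1 was lower in E-cadLO in 4 of 4 mice and 0 were higher in 4 of 4. The lower marker was Epcam, at 1344, 1134, 1291 and 1311 CPM in E-cadHI and 290, 1101, 827 and 792 CPM in E-cadLO. In the markers of other cells 2 libraries stood apart. The E-cadLO library of mouse 57 held 1657 CPM of 8 fibroblast markers against 24.5 to 47.2 CPM in the other E-cadLO libraries, and that of mouse 70 held 34587 CPM of 8 oligodendrocyte markers against 1321 to 4322 CPM. The fibroblast sum was 7.58 to 21.8 CPM and the oligodendrocyte sum 554 to 8618 CPM in E-cadHI.

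Members outside the clusters tended to have higher fitted levels in E-cadLO than in E-cadHI, mostly in mice 57 and 70, whereas the clustered genes were divided, and no member passed the test between the groups. Of the 56 members, 27 of which lie on chromosome 18 and 29 elsewhere, 27 passed the filter on low counts (5 classical, 2 other, 9 non-clustered and 11 clustered), and 4 members never exceeded 3 counts in any library. A gene that is high in 1 group only can pass this filter through that group. The test, edgeR's quasi-likelihood fit over 13598 genes, called 0 members at an adjusted p under 0.05 in either direction, beside a background of 0% of all genes. At an unadjusted p under 0.05 the same fit had 0 members, beside 8.16% of all genes higher and 5.81% lower. With the mouse as a replicate block it called 0 members higher, beside 0.728% of genes, and 4 members were under an unadjusted p of 0.05, beside 12.3% higher and 7.33% lower.

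The fold changes were still unevenly signed. A log2 fold change above 0 was fitted for 20 of the 27 tested members (all genes 55.1%) and for 15 of the 16 outside the clusters. One of 1 or more was fitted for 12 of the 27 (all genes 15.3%). The count outside the clusters was added after the values were seen, and the filter admits genes that are high in 1 group only. With the block, 13 of the same 16 were above 0. Without mouse 57 the count was 14 of 16, and without mouse 70 it was 10 of the 13 that still passed the filter. The median log2 fold change was 1.83 for classical cadherins, 1.15 for other cadherins, 1.11 for non-clustered and -0.25 for clustered protocadherins, against 0.06 for all genes. Without mouse 57 the median of the non-clustered protocadherins was 0.25. With at least 10 counts required in every library, 6 members were left, Cdh19 being the only classical cadherin among them. The classical and non-clustered medians were then smaller and both lay below the clustered median, the reverse of the order over all tested members. Groups overlapped in every tested member, while 3.90% of all genes had every E-cadLO library above every E-cadHI library and 4.20% had the reverse. Among the tested members, 6 were higher in E-cadLO in 4 of 4 mice (Cdh11, Cdh22, Pcdh9, Pcdh17, Pcdhb18 and Pcdhgc4), beside 16.8% of all genes, and 1 (Pcdhb20) was lower in 4 of 4, beside 14.2%.

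**Figure D1:**
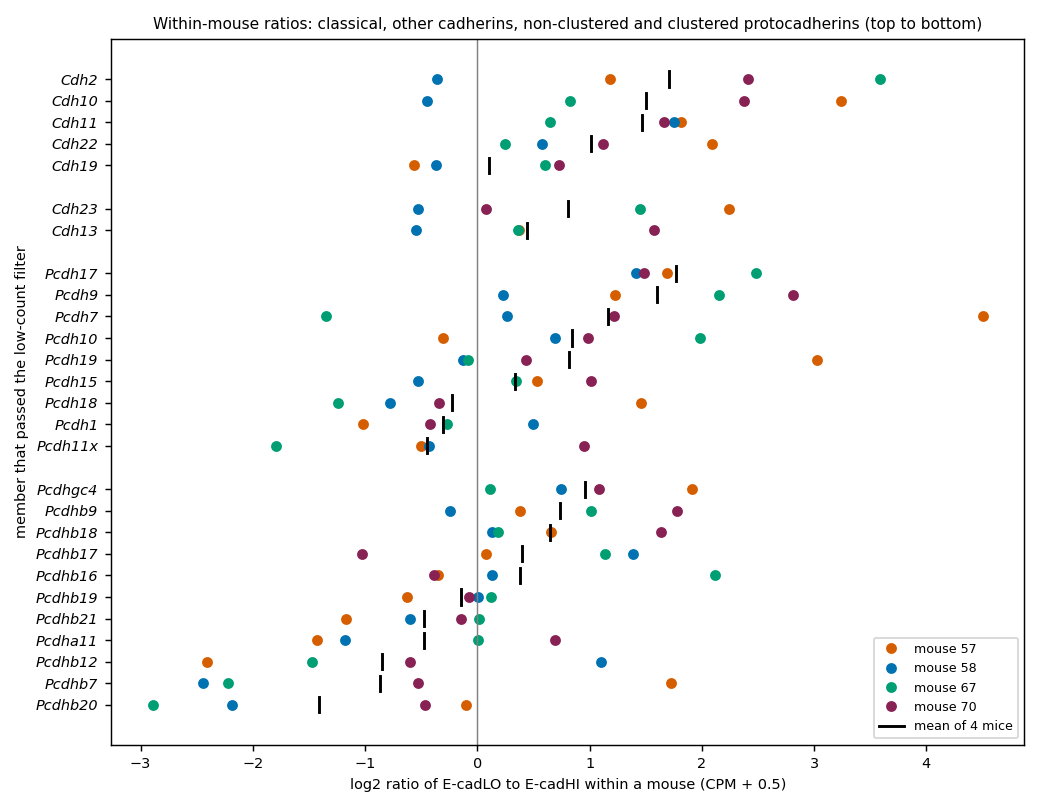
Log2 ratio of E-cadLO to E-cadHI (normalized CPM + 0.5, x axis) within each mouse for the 27 members that passed the low-count filter, grouped from top to bottom as classical cadherins, other cadherins, non-clustered and clustered protocadherins. Points are mice and black bars the mean of 4 mice. All 4 points lie to the right of 0 for 6 members and to the left for Pcdhb20.

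Within the mice, the shift was not shared equally. For the 16 tested members outside the clusters the median log2 ratios (CPM + 0.5) were 1.34, -0.24, 0.48 and 1.07, and for the 5 classical cadherins alone 1.82, -0.36, 0.65 and 1.66. The E-cadLO library of mouse 70 was the highest of the 8 libraries for 13 of the 27 members (all genes 19.1%), 11 of them among the 16 outside the clusters, and the E-cadLO library of mouse 57 was highest for 6 of the 27 (all genes 21.5%). By the medians, mouse 58 showed little of the difference, and mice 57 and 70 most of it. The count of highest levels for mouse 57 was near the share over all genes.

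The markers of other cells also differed between the populations. Summed oligodendrocyte markers were higher in E-cadLO in every mouse, by log2 ratios of 1.25, 1.21, 2.17 and 2.005, astrocyte markers by 2.03, 0.96, 2.52 and 1.85, neuron markers by 2.87, 1.34, 2.55 and 1.95, and microglia markers by 1.99, 1.12, 2.55 and 1.86. Mouse 58, where the members outside the clusters had a median of -0.24, had the smallest ratio in each of these lists, still above 0. The oligodendrocyte, astrocyte and microglia ratios were largest in mouse 67, and the neuron ratio in mouse 57. The fibroblast sum differed by 7.63 in mouse 57 and by 1.12 to 2.24 in the others. Astrocyte sums were 16.3 to 1140 CPM in E-cadHI and 66.5 to 4103 CPM in E-cadLO, neuron sums 4.39 to 71.998 and 32.1 to 278 CPM, and microglia sums 30.9 to 201 and 123 to 728 CPM. Of the 8 markers in each list, all 8 of microglia, 6 of neurons, 5 of oligodendrocytes, 5 of astrocytes and 3 of fibroblasts were higher in E-cadLO in 4 of 4 mice. Markers at 0 in some library were Gjb6 among astrocyte markers, Tubb3, Stmn2 and Slc17a7 among neuron markers, and Lum and Pdgfrb among fibroblast markers, and no oligodendrocyte or microglia marker was at 0. Sums for oligodendrocyte precursors (54.4 to 109 CPM in E-cadHI, 39.8 to 119 CPM in E-cadLO) and mural cells (22.4 to 63.9 and 16.6 to 160 CPM) were higher in E-cadLO in some mice and lower in others. Sox10, the largest part of the precursor sum in every library except E-cadLO of mouse 70, was lower in E-cadLO in 4 of 4 mice. Of the 6 precursor markers, 3 (Pdgfra, Olig1 and Gpr17) were higher in 4 of 4. Of the 6 mural markers, 1 was higher and 1 lower in 4 of 4. The endothelial sum (41.3 to 75.7 and 55.6 to 98.1 CPM) was higher in E-cadLO in every mouse, by 0.42, 0.90, 0.29 and 0.57. The neutrophil sum (15.8 to 24.3 and 8.72 to 17.1 CPM) was lower in every mouse, by log2 ratios of -1.40, -1.48, -0.68 and -0.022. Flt1 was the largest part of the endothelial sum in every library, and S100a8 of the neutrophil sum. Flt1 itself was lower in E-cadLO of mouse 57 (34.0 against 40.4 CPM). In 4 of 4 mice, 3 of 8 endothelial markers were higher, and of 6 neutrophil markers 1 was lower and 0 were higher. The part of these cells in the members' values was not tested, and in bulk libraries fewer cells of a type and less RNA per cell cannot be told apart.

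**Figure D2:**
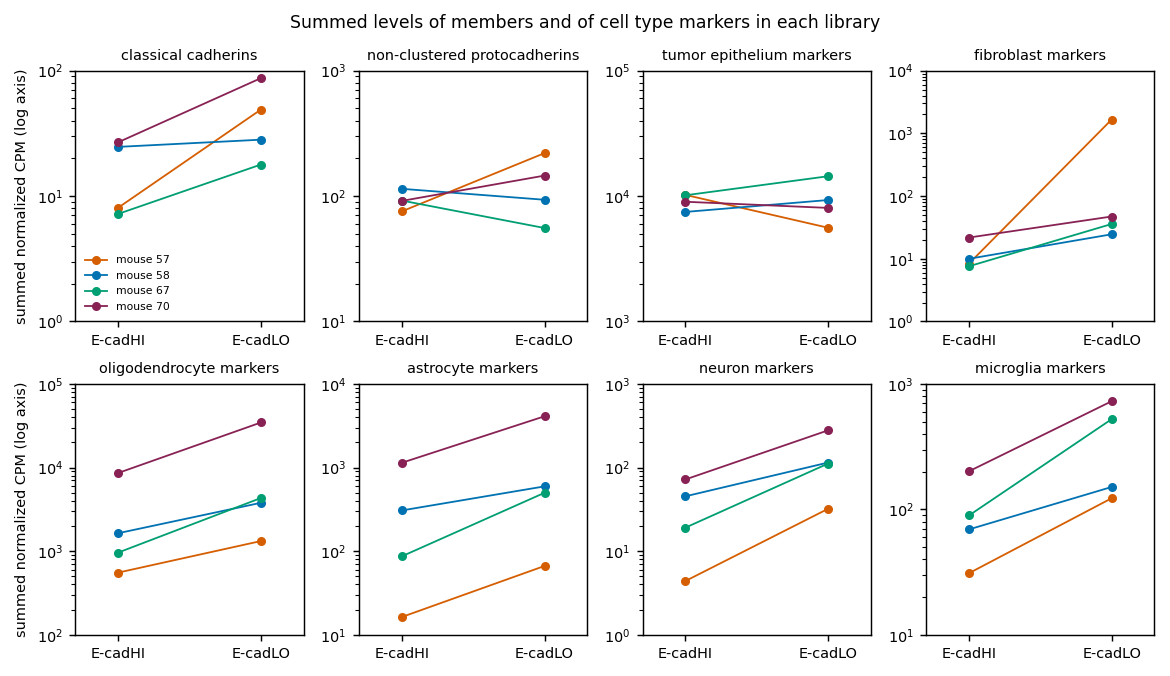
Summed normalized CPM (log axes, 1 scale per panel) in the E-cadHI and E-cadLO library of each mouse for the classical cadherins, the non-clustered protocadherins and 6 lists of cell type markers. Lines join the libraries of a mouse. The oligodendrocyte sum reaches 34587 CPM in E-cadLO of mouse 70 and the fibroblast sum 1657 CPM in E-cadLO of mouse 57, the libraries in which the sums of classical cadherins (87.1 CPM) and of non-clustered protocadherins (220 CPM) are highest.

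Which members were best expressed in these libraries, which also held markers of other cells, was read from levels per length (CPM per kb of exon). Pcdh18 was far above the rest, with a median over the 8 libraries of 9.78 CPM per kb. Pcdhgc4, whose row may hold reads of other gamma protocadherins, followed with 3.70, Cdh19 with 1.94 and Pcdh1 with 1.54, and the fifth, Pcdhb20, had 0.61. By the mean over libraries Cdh15 took the fifth place with 1.43 CPM per kb, although its median was 0.14, and 438 of its counts came from 1 library.

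Among type I classical cadherins, Cdh2 (N-cadherin, chromosome 18, 16588877 to 16809246), the cadherin of neural and mesenchymal cells, stood at 0.28, 2.38, 0 and 2.11 CPM in E-cadHI and 1.26, 1.74, 5.52 and 13.3 CPM in E-cadLO. Its highest value was in E-cadLO of mouse 70, mouse 58 went the other way, and the groups overlapped. The log2 fold change was 2.20 (SE 1.19, edgeR adjusted p = 0.418). Cdh15 (M-cadherin, chromosome 8, 122847966 to 122867397), a cadherin of muscle precursors and cerebellar granule cells, did not pass the filter and is named because of its values. It had 438 counts (32.5 CPM) in E-cadLO of mouse 57 and 0 to 1.98 CPM in all other libraries. Cdh4 (R-cadherin) had at most 11 counts.

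Of the 12 type II cadherins, 4 passed the filter. Cdh11 (OB-cadherin, chromosome 8, 102632095 to 102785642, minus strand), a cadherin of fibroblasts and other mesenchymal cells, stood at 0.70, 1.69, 0.59 and 6.85 CPM in E-cadHI and 3.71, 6.86, 1.21 and 22.8 CPM in E-cadLO. It was higher in E-cadLO in every mouse, with log2 ratios of 1.82, 1.75, 0.65 and 1.66, while mouse 70 was high in both populations and the groups overlapped. The log2 fold change was 1.82 (SE 1.02, edgeR adjusted p = 0.431) and, with the block, 1.81 (SE 0.41, adjusted p = 0.104).

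Cdh10 (chromosome 15, 18818947 to 19014236), a cadherin best known from the brain, stood at 0, 1.92, 1.11 and 3.86 CPM in E-cadHI and 4.23, 1.28, 2.36 and 22.1 CPM in E-cadLO. Only the E-cadLO library of mouse 70 exceeded 5 CPM, and the log2 fold change was 2.12 (SE 1.21, edgeR adjusted p = 0.436). Cdh22, another brain cadherin, was at 0, 0.54, 0.15 and 0.79 CPM and at 1.63, 1.05, 0.27 and 2.31 CPM. It was higher in E-cadLO in each mouse but at low counts, with a log2 fold change of 1.83 (SE 1.02, edgeR adjusted p = 0.428). Cdh19, known from Schwann cell precursors and glia, was at 6.62, 13.8, 4.39 and 9.66 CPM in E-cadHI and 4.31, 10.6, 6.93 and 16.4 CPM in E-cadLO. Among the classical members, which leave out Cdh1, it had the highest level per length by mean and by median over the libraries. By CPM, Cdh15 led in E-cadLO of mouse 57 and Cdh11 in E-cadLO of mouse 70. For Cdh19, 2 mice went each way, and the log2 fold change was 0.15 (SE 0.49, edgeR adjusted p = 0.898). Cdh20, outside the filter and named for its values, had 114 counts (7.97 CPM) in E-cadLO of mouse 70 and 0 in the other 3 E-cadLO libraries, which allows up to 0.223, 0.349 and 0.202 CPM there. Its E-cadHI library of mouse 70 had 16 counts. Cdh6, Cdh7, Cdh8, Cdh9, Cdh12, Cdh18 and Cdh24 did not pass the filter.

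Cdh13 (T-cadherin), which is held in the membrane by a lipid anchor and has no cytoplasmic tail, was at 0, 1.08, 0.52 and 3.69 CPM in E-cadHI and 0.15, 0.58, 0.81 and 11.95 CPM in E-cadLO. Again mouse 70 was high in both populations, and the log2 fold change was 1.36 (SE 1.46, edgeR adjusted p = 0.653). Cdh23, a component of hair cell tip links, was at 0.14, 2.23, 0.45 and 0.70 CPM and at 2.53, 1.40, 2.09 and 0.77 CPM, with a log2 fold change of 0.94 (SE 0.80, edgeR adjusted p = 0.569). Cdh16, Cdh17 and Cdh26, which are mainly cadherins of epithelia, did not pass the filter.

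**Figure D3:**
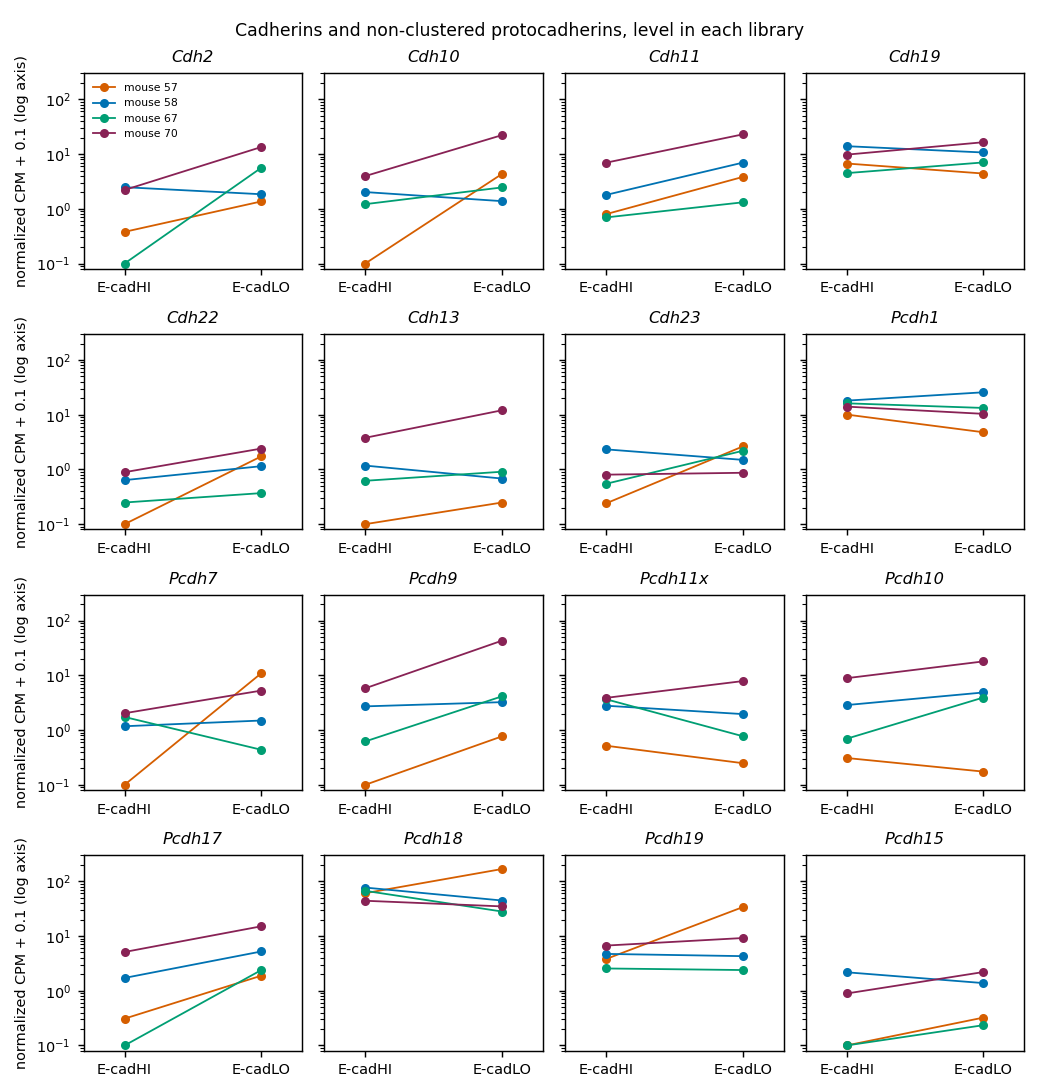
Normalized CPM + 0.1 (log axis) of the 16 tested members outside the clusters in the E-cadHI and E-cadLO library of each mouse, with lines joining the libraries of a mouse. The E-cadLO library of mouse 70 is the highest of the 8 for 11 of the 16, and Pcdh18 lies between 27.9 and 168 CPM.

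The delta-1 protocadherins differed in direction. Pcdh9 (chromosome 14, 93013410 to 93890679, minus strand), expressed by neurons and oligodendrocyte lineage cells, was at 0, 2.61, 0.52 and 5.71 CPM in E-cadHI and 0.67, 3.14, 4.04 and 43.0 CPM in E-cadLO. Its level was by far the highest in E-cadLO of mouse 70. It was higher in E-cadLO in all 4 mice, by log2 ratios of 1.22, 0.23, 2.15 and 2.81, the difference being small in mouse 58, and the groups overlapped. The log2 fold change was 2.53 (SE 1.45, edgeR adjusted p = 0.436), and 2.31 (SE 0.68, adjusted p = 0.162) with the block. Without mouse 70 it was 1.33.

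Pcdh7, which shares 20.2% of its 65-base windows with the antisense gene 4932441J04Rik, was at 0, 1.08, 1.64 and 1.93 CPM in E-cadHI and 10.8, 1.40, 0.34 and 5.17 CPM in E-cadLO. Mice 57 and 70 had the high E-cadLO values and mouse 67 went the other way, so that the log2 fold change of 1.93 (SE 1.20, edgeR adjusted p = 0.462) was 0.53 without mouse 57. Pcdh1, a protocadherin of epithelia as well as of brain, was at 9.97, 17.98, 16.1 and 14.0 CPM and at 4.68, 25.6, 13.2 and 10.3 CPM. It was lower in E-cadLO in 3 of 4 mice, with a log2 fold change of -0.11 (SE 0.46, edgeR adjusted p = 0.919). Pcdh11x, on the X chromosome, was at 0.42, 2.69, 3.57 and 3.78 CPM and at 0.15, 1.86, 0.67 and 7.76 CPM. Mouse 70 was the exception to lower values in E-cadLO, and the log2 fold change was 0.00 (SE 1.05, edgeR adjusted p = 0.999) without the block and -0.73 with it.

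Pcdh18, a delta-2 protocadherin (chromosome 3, 49743296 to 49757325, minus strand) whose promoter is printed above, was at 60.6, 76.7, 66.8 and 44.0 CPM in E-cadHI and 168, 44.4, 27.9 and 34.7 CPM in E-cadLO. It was lower in E-cadLO in mice 58, 67 and 70, by log2 ratios of -0.78, -1.24 and -0.34, and higher only in mouse 57, by 1.46. The log2 fold change was 0.15 (SE 0.53, edgeR adjusted p = 0.906), -0.26 with the block and -0.84 without mouse 57. The library of mouse 57 is the one with the high fibroblast sum, whose part in this value was not tested. Pcdh19, mutated in an X-linked epilepsy, was at 3.69, 4.61, 2.45 and 6.59 CPM and at 33.6, 4.19, 2.29 and 9.09 CPM. It shared the high value in E-cadLO of mouse 57. It had the smallest adjusted p of all members (log2 fold change 1.504, SE 0.77, edgeR adjusted p = 0.401), and without mouse 57 the log2 fold change was 0.16.

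Pcdh17 (chromosome 14, 84443563 to 84537060), a delta-2 protocadherin of synapses and axons, followed another course. It was at 0.21, 1.61, 0 and 5.005 CPM in E-cadHI and 1.78, 5.12, 2.29 and 14.96 CPM in E-cadLO. Every mouse had more in E-cadLO, with log2 ratios of 1.69, 1.41, 2.48 and 1.49, while levels differed between the mice and the groups overlapped. The log2 fold change was 1.83 (SE 1.25, edgeR adjusted p = 0.496) and, with the block, 2.54 (SE 0.76, adjusted p = 0.165). Pcdh10, which has been studied in neurons and as a gene methylated in tumors, was at 0.21, 2.77, 0.59 and 8.78 CPM and at 0.07, 4.77, 3.84 and 17.9 CPM. It was higher in E-cadLO in 3 of 4 mice, with a log2 fold change of 1.11 (SE 1.302, edgeR adjusted p = 0.682). Pcdh15, a partner of Cdh23 in tip links, was at 0, 2.07, 0 and 0.79 CPM and at 0.22, 1.28, 0.13 and 2.097 CPM, with a log2 fold change of 0.38 (SE 1.37, edgeR adjusted p = 0.907). Pcdh8, Pcdh12 and Pcdh20 did not pass the filter.

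DESeq2 with the mouse as a replicate block was the only fit to call members, 4 of the 37 to which it gave an adjusted p, beside 6.77% of all genes called higher and 1.35% lower. These were Cdh11 (log2 fold change 1.85, adjusted p = 0.00203), Pcdh17 (2.68, 0.00586), Pcdh9 (2.45, 0.00724) and Pcdhgc4 (1.01, 0.0489), all higher in E-cadLO and in 4 of 4 mice. Over the alternatives their adjusted p ranged up to 0.709, 0.731, 0.715 and 0.740. On simulated counts this fit made 23.3% to 39.4% false calls, against 3.21% to 5.45% for edgeR with or without the block. The simulated counts held no differences between mice and used dispersions estimated by edgeR. These shares therefore do not measure false calls in the paired libraries. DESeq2 without the block called 0 of 34 members, beside 2.48% of genes higher and 0.264% lower, and gave no adjusted p for Pcdh18 and Cdh13.

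The clustered protocadherins lie on chromosome 18, and the table used here has 1 alpha row, 22 beta rows and 1 gamma row. The gamma row, Pcdhgc4 (37815079 to 37841873), ends within 10 bases of all 22 gamma cluster genes of the GENCODE M21 annotation, and 36.8% of its 65-base windows also occur in other genes. The alpha row, Pcdha11 (37005203 to 37187657), ends with all 14 alpha genes and shares 58.5% of its windows. How reads of these shared exons were assigned is not given in the sources used here, so both rows may hold reads of other genes of their cluster.

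Pcdhgc4 was at 6.97, 22.5, 7.51 and 18.9 CPM in E-cadHI and 27.6, 38.0, 8.15 and 40.5 CPM in E-cadLO. It was higher in E-cadLO in every mouse, by log2 ratios of 1.91, 0.74, 0.11 and 1.08, the difference being small in mouse 67. The log2 fold change was 1.03 (SE 0.55, edgeR adjusted p = 0.411), with 0.181 for the block. Pcdha11 was at 1.05, 2.997, 0.67 and 1.67 CPM and at 0.07, 1.05, 0.67 and 3.005 CPM. In E-cadLO it was lower in mice 57 and 58, higher in mouse 70 and at about the same level in mouse 67.

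The beta genes, most of them single-exon genes with promoters of their own, had a more even sum than the single genes. The sum over the 22 genes was 16.4, 16.8, 20.2 and 18.4 CPM in E-cadHI and 19.99, 16.2, 26.7 and 34.7 CPM in E-cadLO, which is a log2 ratio of 0.28, -0.05, 0.40 and 0.91. Which gene led differed from library to library. In E-cadHI the leading gene was Pcdhb19 in mouse 57 (19.1% of the beta counts, exact 95% binomial interval 14.3% to 24.7%), Pcdhb20 in mouse 58 (13.8%, 9.48% to 19.1%), Pcdhb7 in mouse 67 (26.1%, 20.99% to 31.7%) and Pcdhb20 in mouse 70 (20.5%, 15.2% to 26.6%). In E-cadLO it was Pcdhb7 in mouse 57 (35.7%, 29.96% to 41.7%), Pcdhb17 in mouse 58 (32.4%, 24.7% to 40.8%), Pcdhb17 in mouse 67 (18.1%, 14.5% to 22.3%) and Pcdhb14 in mouse 70 (20.8%, 17.3% to 24.6%). The intervals cover counting error only and do not set the leading gene against the next one, which was close in some libraries. In E-cadHI of mouse 58, Pcdhb20 had 30 counts and Pcdhb7 had 29.

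**Figure D4:**
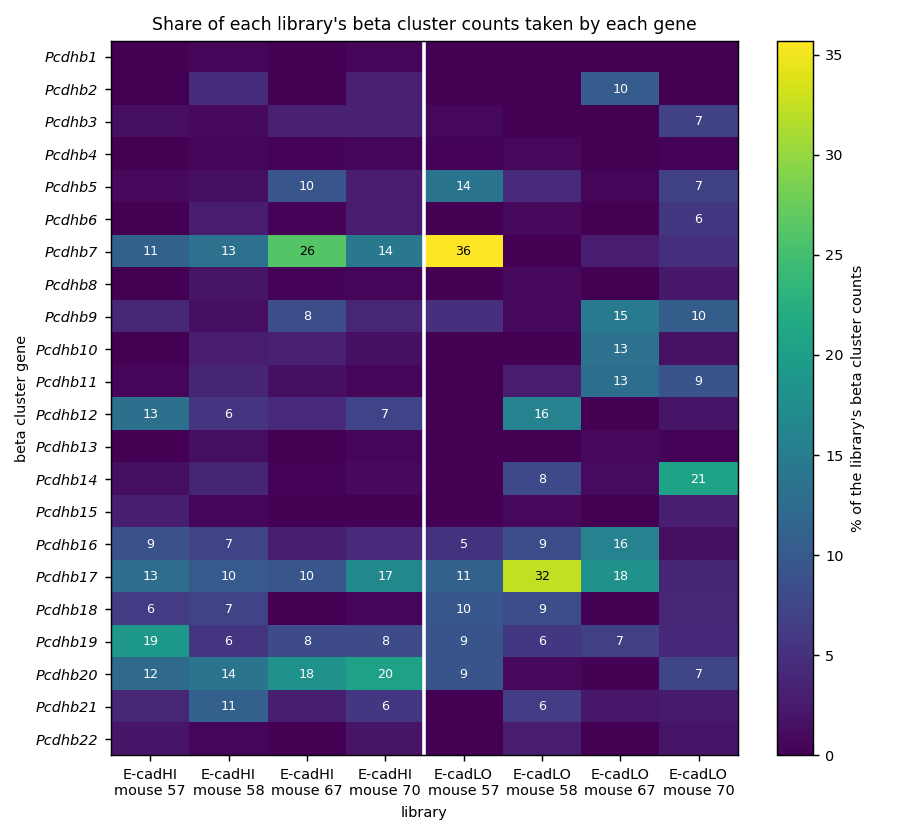
Percent of the beta cluster counts of each library (columns, E-cadHI left and E-cadLO right of the white line) taken by each of the 22 beta genes (rows), with shares of 5% or more printed. No gene leads in all libraries, and the highest share is that of Pcdhb7 in E-cadLO of mouse 57.

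Single beta genes could nearly vanish in 1 population of a mouse. Pcdhb7 had 5.28 CPM in E-cadHI and 0.74 CPM in E-cadLO of mouse 67, 2.23 and 0 CPM in mouse 58, 2.63 and 1.68 CPM in mouse 70, and the reverse, 1.81 and 7.13 CPM, in mouse 57. Pcdhb20 was at 2.02, 2.31, 3.72 and 3.78 CPM in E-cadHI and at 1.86, 0.12, 0.07 and 2.59 CPM in E-cadLO. It was the only tested member lower in all 4 mice, with a log2 fold change of -1.33 (SE 0.95, edgeR adjusted p = 0.514). Pcdhb17 was at 2.09, 1.69, 1.93 and 3.07 CPM and at 2.23, 5.23, 4.85 and 1.26 CPM. Pcdhb16 was at 1.46, 1.23, 0.59 and 0.79 CPM and at 1.04, 1.40, 4.24 and 0.49 CPM. Only mouse 67 gave this gene a clear difference, and without it the log2 fold change of 0.81 was -0.24. Pcdhb9 was at 0.63, 0.23, 1.71 and 0.70 CPM and at 0.97, 0.12, 3.97 and 3.63 CPM. Pcdhb19 was the steadiest, at 3.14, 0.92, 1.64 and 1.49 CPM and at 1.86, 0.93, 1.82 and 1.40 CPM. The log2 fold changes of Pcdhb17, Pcdhb9, Pcdhb19, Pcdhb7 and Pcdha11 were 0.62, 1.41, -0.25, -0.31 and -0.40, with edgeR adjusted p of 0.585, 0.490, 0.828, 0.899 and 0.840. The beta genes share sequence, but only 0.33% to 9.80% of the 65-base windows of a beta gene with any sharing occurred in other genes, apart from Pcdhb12, of which 63.4% did because of an overlapping antisense gene.

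Related genes were read beside them from lists that are not members. Of 18 other genes of the cadherin superfamily 17 were in the table and 9 were tested, with 3 log2 fold changes above 0, 6 below, a median of -0.20 and 0 calls in edgeR (2 at an unadjusted p under 0.05). Of all genes, 8.16% were higher and 5.81% lower at that unadjusted p. The best expressed were Clstn1, a calsyntenin, with 101 ± 13.5 CPM in E-cadHI and 82.5 ± 12.8 in E-cadLO (mean ± SD, n = 4), Cdhr1, a protocadherin-related gene of photoreceptors, with 93.9 ± 18.5 and 50.8 ± 7.38 CPM, Fat1 with 68.8 ± 16.5 and 59.8 ± 13.3, Celsr2 with 37.8 ± 8.74 and 26.6 ± 8.31, and Cdhr2 with 6.16 ± 2.29 and 4.32 ± 1.36. Cdhr1 was lower in E-cadLO in 4 of 4 mice, with a log2 fold change of -0.89 (SE 0.19). Its edgeR adjusted p was 0.247, and 0.0535 with the block, while DESeq2 called it lower both without the block (adjusted p = 0.0206) and with it.

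The cytoplasmic partners of cadherins and the regulators of the clusters, 23 genes that were all tested, had 14 log2 fold changes above 0, 9 below and a median of 0.11, with 0 calls in edgeR (0 at an unadjusted p under 0.05, and 5 with the block). Of all genes, 12.3% were higher and 7.33% lower at that unadjusted p with the block. Ctnna1 (alpha-E-catenin) was at 704 ± 153 and 732 ± 110 CPM, Jup (plakoglobin) at 425 ± 57.9 and 329 ± 139, Cyfip1, of the actin-regulating WAVE complex, at 369 ± 66.0 and 333 ± 57.9, Ctnnb1 (beta-catenin) at 298 ± 20.3 and 210 ± 65.3, and Smc3, a cohesin subunit, at 148 ± 25.6 and 179 ± 38.4. None of these 5 passed the test, and Ctnnb1 was lower in E-cadLO in 4 of 4 mice with a log2 fold change of -0.50 (SE 0.23, edgeR adjusted p = 0.369). DESeq2 with the block called 2 of the 23 higher, beside 6.77% of all genes. These were Ctnna2 (alpha-N-catenin, the neural form) with 1.02 ± 1.22 and 7.29 ± 7.75 CPM and Cyfip2 with 7.89 ± 8.60 and 26.3 ± 19.9 CPM. Cdh5, the endothelial cadherin, was at 0.34 ± 0.19 and 1.72 ± 2.73 CPM and Cdh3 (P-cadherin) at 0.39 ± 0.30 and 0.31 ± 0.58 CPM, and neither passed the filter.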

How the data were processed

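Sorted E-cadHI and E-cadLO cells of 4 mice were sequenced as 8 mRNA libraries (TruSeq, single reads of 65 bases). The authors deposited whole-number counts per gene without normalization. The submitters' processing notes name HISAT2 2.1.0, HTSeq and the GRCm38 build, and the study's methods name Icount for counting. Use of strand and of reads matching several genes is not given in the sources used here. Entries with no gene identifier (365) were dropped, at most 0.0954% of a library. All count columns were used. No pair of libraries agreed within sampling noise (chi-square per degree of freedom of at least 30.1). A floor of 3 counts corresponds to 0.202 to 0.349 normalized CPM.

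From the counts, edgeR 4.0.16 (R 4.3.3) was run on the whole table with TMM scaling, filterByExpr by group and the quasi-likelihood test on the 8 libraries. P-values were adjusted by Benjamini-Hochberg across the 13598 genes that passed. Replicates are mice that bear tumors of the same line. Within-mouse ratios used CPM plus 0.5, which understates the change of low genes. Exon lengths came from the GENCODE M21 annotation (GRCm38) and promoters from RefSeq. Members, role groups, marker and partner lists were chosen with earlier results of these data known, so no list was tested. The named members were all tested members outside the clusters and the 8 clustered genes with the highest mean CPM. Cdh15, Cdh20, Pcdhb12, Pcdhb14 and Pcdhb18 were named after their values were seen. Related genes were the 5 highest of each list and those called.

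Pairing comes from the labels, which number both libraries of an animal alike. Deviations from the group means correlated at 0.248 to 0.692 within the 4 mice and at most at 0.144 in the 12 other pairs. The alternatives were a replicate block, DESeq2 1.42.0 with and without it, DESeq2 size factors, other filters and pseudocounts, and leaving out each mouse. Tested on simulated data of 13598 genes with 200 changed 4-fold, edgeR recovered 62.5% and 75.5% (unpaired and paired dispersion) with 4.58% and 3.21% false calls, and with the block 52.0% and 72.0% with 5.45% and 5.26%. DESeq2 gave 21.5% and 17.3% false calls, and with the block 39.4% and 23.3%. The simulation drew no differences between mice and used edgeR's dispersions, so it cannot judge the block on paired libraries. Python 3.11 (pandas 2.3, scipy 1.17, matplotlib 3.10) served for tables and plots.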

Additional observations from a re-analysis of the deposited data

Results flagged for a closer look

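In groups of 4 libraries, or over the 4 mice for within-mouse ratios, a value was singled out when its gap to the nearest other value took up an unusually large share of the whole range (Dixon's criterion). This held for 5 of the 72 groups of the members named by rule, where chance gives about 1 in 20. The other 4 values, of Cdh15 and Cdh20, which were named for their values, and of a sum made up mostly of Cdh13, cannot be set against that share.

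In the E-cadLO library of mouse 70, Cdh10 was at 22.1 CPM (others 1.28 to 4.23), Cdh13 at 11.95 CPM (others 0.15 to 0.81), Pcdh9 at 43.0 CPM (others 0.67 to 4.04), Cdh20 at 7.97 CPM (others at 0) and the summed other cadherins at 13.4 CPM (others 2.33 to 3.34). In its E-cadHI library Cdh15 was at 1.05 CPM (others 0.35 to 0.46). In the E-cadLO library of mouse 57, Cdh15 was at 32.5 CPM (others 0 to 1.98) and Pcdh18 at 168 CPM (others 27.9 to 44.4). The within-mouse log2 ratio of Cdh11 was 0.65 in mouse 67 and 1.66 to 1.82 in the others.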

How the results depend on the processing

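No member was called by edgeR under any filter, scaling, replicate block or left-out mouse, nor by DESeq2 without the block, and DESeq2 with the replicate block called 4. With the replicate block in edgeR, which uses the pairing of libraries by mouse, 0 members were called and the medians were 1.94 (classical), 1.05 (other), 1.08 (non-clustered) and -0.18 (clustered). Of 24 named members, 15 kept 1 sign in every alternative and 9 did not. Pcdh11x was -0.73 with the block, -0.75 with DESeq2 and the block and -0.050 without a filter, and Pcdh18 was -0.26 with the block and -0.25 with DESeq2 and the block. Requiring at least 10 counts in every library left 6 members: Cdh19, Pcdh1, Pcdh18, Pcdh19, Pcdhb17 and Pcdhgc4. The medians were then 0.18 (classical, Cdh19 alone), 0.19 (non-clustered) and 0.86 (clustered), so that the clustered median was the largest. Each rests on very few genes. Of the members left outside the clusters 3 of 4 were above 0, a count added after the values were seen.

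Over the fits without 1 mouse, the median ranged from 1.54 to 2.20 for classical cadherins, 0.25 to 1.53 for non-clustered and -0.31 to 0.20 for clustered protocadherins, and the log2 fold change from -0.18 to 0.43 for Cdh19, -0.50 to 0.011 for Pcdh1, -1.34 to 0.48 for Pcdh11x, -0.84 to 0.50 for Pcdh18, 0.53 to 2.58 for Pcdh7, -1.40 to 0.16 for Pcdha11, -0.24 to 1.22 for Pcdhb16, -0.38 to 0.020 for Pcdhb19 and -2.06 to 0.47 for Pcdhb7. With the block as well, leaving out mouse 57 gave a median of 0.063 (non-clustered) and 0.0023 (clustered) and a fold change of -0.56 for Pcdh11x, -0.82 for Pcdh18, -0.019 for Pcdh7 and 0.0023 for Pcdhb19. Without mouse 58 the clustered median was -0.072, Pcdh11x -0.82 and Pcdh18 -0.044. Without mouse 67 they were -0.48 (clustered median), -0.068 (Cdh19), -0.13 (Pcdh11x) and -0.31 (Pcdhb16). Without mouse 70 they were 0.18 (clustered median), -0.11 (Cdh19), -1.44 (Pcdh11x) and -0.22 (Pcdh18), and 9 of 13 tested members outside the clusters were above 0, fewer members passing the filter. The causes were not tested. At these depths a member at 0 may still be present at up to 0.202 to 0.349 normalized CPM.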
